A study of Homo sapiens with 15 samples.

Results

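Heat shock proteins of the HSP70, HSP110, HSP60 and small heat shock protein families, and the BAG cofactors of HSP70, were followed across 5 siRNA groups of HEK293T cells. The genes were chosen by symbol alone, as every HSP90, HSPA, HSPB, HSPD1, HSPE1, HSPH1, DNAJ or BAG gene named in the array's probe-to-gene table, with 1 probe set per gene. Of 77 RefSeq symbols that fit this rule, 22 had a named probe set, that is, a probe set with a single gene symbol, among the 14884 genes tested. The 22 were 13 of 16 HSP70 and HSP110 genes, 3 of 7 small heat shock proteins, 1 of 2 mitochondrial chaperonin genes and 5 of 6 BAG genes. None of the 3 HSP90 genes and none of the DNAJ genes (4 DNAJA, 13 DNAJB and 26 DNAJC) had a named probe set. The J-domain partners and HSP90, like HSPA8, HSPA5 and HSPE1, are thus not analysed here. The set is therefore mainly one of HSP70-type chaperones and their BAG cofactors, and HSPA9 and HSPD1 work in mitochondria rather than the cytosol.

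HSP70 chaperones bind exposed hydrophobic stretches of unfolded proteins and release them in cycles of ATP binding and hydrolysis. J-domain proteins stimulate the hydrolysis, while HSP110 and BAG proteins speed the exchange of nucleotide that lets the client go. Some of the genes, HSPA1A and HSPA1B above all, are induced by heat and proteotoxic stress through the transcription factor HSF1, whereas others are expressed at a steady level.

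HEK293T is a human embryonic kidney line that carries the SV40 large T antigen. The study asked how specific the response to loss of LOC550643, which encodes the P-body protein NoBody, is beside that to loss of other genes. Total RNA was measured on 15 Affymetrix arrays, 3 in each group. The groups had received a pool of 4 siRNAs to LOC550643, siRNA to Dcp2 (the mRNA decapping enzyme), siRNA to DcpS (the scavenger decapping enzyme), siRNA to GAPDH (a glycolytic enzyme) or a non-silencing siRNA. All 5 groups, the non-silencing one included, were exposed to actinomycin D, an inhibitor of transcription, at 1 ug per mL for 4 h, beginning 48 h after transfection, and no group without the drug was analysed here. Each level therefore combines what was present before the drug with what remained after it. The labels do not tell whether replicates were separate cultures. The p-values thus reflect the scatter of 3 samples a group, and that scatter may be technical. As RNA came from whole cultures, a change in every cell and a change in some of the cells cannot be told apart.

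Deposited values were normalized log2 levels, and the medians of the arrays over all probe sets ran from 4.01 to 4.08. Arrays of 1 group correlated at 0.983 to 0.991 and arrays of different groups at 0.981 to 0.991. The knockdown could be checked for 2 of the 4 targets. DCP2 stood at 6.34 ± 0.10 with Dcp2 siRNA and 8.14 ± 0.13 with non-silencing siRNA (SD, n = 3 each), or 28.7% of it, and was also lower by 0.54 log2 units with DcpS siRNA (limma adjusted p = 0.0252). GAPDH stood at 5.97 ± 0.24 with its own siRNA and 7.20 ± 0.10 with non-silencing siRNA, or 42.6% of it. The transcripts of the other 2 targets, LOC550643 and DCPS, were not named in the table used here. Of 7 genes known from the line itself, 2 were measured (PAX2 and LHX1), with a mean level of 5.63 to 6.06 per array. The mean level of 3 blood cell genes ran from 4.23 to 4.71, of 2 fibroblast genes from 2.55 to 3.21, of 3 hepatocyte genes from 4.46 to 4.71 and of 3 epithelial genes from 6.46 to 6.70.

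The upstream sequences of HSPA1A, HSPA1B and HSPA2 are shown first, because these genes carried the largest differences associated with the Dcp2 and DcpS siRNAs. The stretches are the 250 bases before each RefSeq start in GRCh38.p14, on the plus strand, at chr6:31815293-31815542 for HSPA1A, chr6:31827488-31827737 for HSPA1B and chr14:64540491-64540740 for HSPA2. Capitals mark a match to 2 facing units of the heat shock element, the DNA motif bound by HSF1, written GAANNTTC or TTCNNGAA.
HSPA1A: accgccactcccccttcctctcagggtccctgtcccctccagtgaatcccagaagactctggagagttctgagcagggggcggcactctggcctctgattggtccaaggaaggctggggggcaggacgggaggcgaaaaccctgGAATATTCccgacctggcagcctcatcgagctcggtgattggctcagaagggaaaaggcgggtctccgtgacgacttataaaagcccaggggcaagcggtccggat
HSPA1B: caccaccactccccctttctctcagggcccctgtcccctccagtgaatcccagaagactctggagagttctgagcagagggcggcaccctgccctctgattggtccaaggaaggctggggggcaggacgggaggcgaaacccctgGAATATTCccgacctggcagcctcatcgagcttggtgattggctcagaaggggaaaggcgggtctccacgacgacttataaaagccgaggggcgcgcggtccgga
HSPA2: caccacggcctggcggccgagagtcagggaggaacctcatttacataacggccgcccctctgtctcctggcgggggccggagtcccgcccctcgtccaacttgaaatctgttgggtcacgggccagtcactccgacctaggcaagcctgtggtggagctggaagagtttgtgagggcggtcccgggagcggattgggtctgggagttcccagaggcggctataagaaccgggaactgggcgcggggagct
The match lies at -106 from the start in HSPA1A and at -105 in HSPA1B, and these letters are not in the HSPA2 window. The windows of HSPA1A and HSPA1B, taken with the first 50 transcribed bases, were identical at 277 of 299 aligned positions (92.6%). The window of HSPA1L, which lies on the minus strand of chromosome 6, overlapped that of HSPA1A by 241 bases, so the HSPA1A match is also counted for HSPA1L.

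RefSeq windows of that kind, from 250 bases before to 50 after the start, were matched by symbol for 18 of the 22 genes and searched for 4 motifs, on both strands except for the TATA box. The 2-unit element was in 9 of the 18 (BAG2, HSPA1A, HSPA1B, HSPA1L, HSPA6, HSPA9, HSPB1, HSPB3 and HSPB8) and in 13.7% of all 27305 windows. A 3-unit element, GAANNTTCNNGAA or TTCNNGAANNTTC, which overlaps the 2-unit one, was found in HSPA6 alone among the 18 and in 0.487% of all windows. The letters CCAAT, on either strand, were in HSPA1A, HSPA1B, HSPA1L and HSPA2 and in 35.7% of all windows. TATAAA, on the strand of the gene, was in HSPA1A, HSPA1B and HSPB3 and in 7.71% of all windows. HSPA4L and HSPH1, whose transcripts also differed between groups, held none of the 4 motifs in these windows. A match is a description of the sequence only.

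Among the 22 genes, 5 differed among the siRNA groups by limma's moderated F test, all of the HSP70 and HSP110 families, against 12.2% of all genes tested. They were HSPA4L (F test adjusted p = 0.000447), HSPA2 (0.0011), HSPA1A (0.00889), HSPA1B (0.00938) and HSPH1 (0.0348). The range of the 5 group means had a median of 0.30 log2 units over the 22 genes and 0.27 over all genes tested. By this median the chaperone set was close to other genes in how far the groups lay apart. The share passing the F test, 5 of 22, was above the 12.2% of all genes, but rests on few genes. Of these, HSPA1A and HSPA1B are near copies whose signals are not independent. The 12.2% also covers genes of low level, and a share over genes of like level was not computed. None of the BAG genes, the small heat shock proteins or HSPD1 passed the F test or any of the 10 comparisons between groups.

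**Figure D1:**
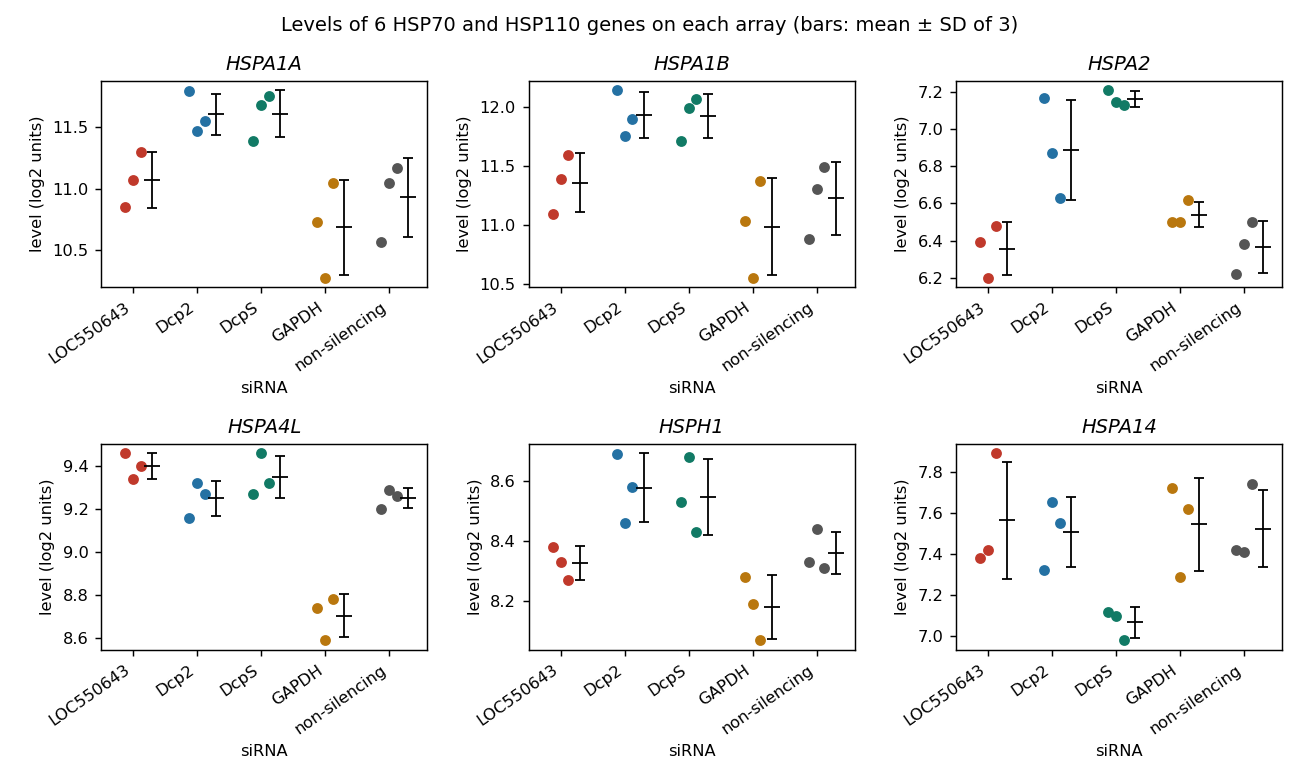
Log2 levels of 6 HSP70 and HSP110 genes (HSPA1A, HSPA1B, HSPA2, HSPA4L, HSPH1 and HSPA14) on each of the 15 arrays, by siRNA group. Points are arrays and bars the mean ± SD of 3. HSPA2 sits above the non-silencing arrays with Dcp2 and DcpS siRNA, while HSPA4L sits at 8.59 to 8.78 with GAPDH siRNA and at 9.16 or more elsewhere.

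Against non-silencing siRNA, 2 of the 22 chaperone transcripts passed the test in at least 1 comparison, against 7.46% of all genes. The 4 comparisons share the non-silencing arrays and are therefore given side by side without any measure of likeness between them. With LOC550643 siRNA, 0 of 22 genes passed limma's test at an adjusted p of 0.05, against 1.57% of all genes, and 2 of 22 had an unadjusted p under 0.05, against 12.5%. The median change of the 22 was 0.07 log2 units beside -0.01 for all genes. With Dcp2 siRNA, 1 gene was called (HSPA2, higher), against 1.98% of all genes, with a median change of 0.09 beside 0.00. With DcpS siRNA 1 gene was called (again HSPA2, higher), against 3.61%, also with a median of 0.09 beside 0.00. With GAPDH siRNA 1 gene was called (HSPA4L, lower), against 2.0%, with a median of 0.03 beside 0.00. Each of these counts is small beside the 22 genes, and 1 gene decides each share. At an unadjusted p under 0.05 there were 7 of 22 genes with Dcp2 siRNA, against 16.3% of all genes, 7 with DcpS siRNA, against 16.1%, and 2 with GAPDH siRNA, against 13.6%.

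HSPA2, an HSP70 best known for its role in male germ cells but expressed in other tissues too, rose with Dcp2 and DcpS siRNA. Its log2 levels were 7.21, 7.15 and 7.13 in the DcpS arrays and 7.17, 6.87 and 6.63 in the Dcp2 arrays. They were 6.22, 6.38 and 6.50 in the non-silencing arrays, 6.39, 6.20 and 6.48 in the LOC550643 arrays and 6.50, 6.50 and 6.62 in the GAPDH arrays. Every DcpS and Dcp2 array lay above every array of the other 3 groups, though the lowest Dcp2 array cleared the highest GAPDH array narrowly. The change was 0.80 with DcpS siRNA (1.74-fold, SE 0.12, limma adjusted p = 0.00205) and 0.53 with Dcp2 siRNA (1.44-fold, SE 0.12, adjusted p = 0.0388). With LOC550643 siRNA it was -0.01 (95% interval -0.27 to 0.25) and with GAPDH siRNA 0.18 (interval -0.08 to 0.44).

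Direct comparisons separated HSPA2 with LOC550643 siRNA from its level with DcpS siRNA (-0.81, adjusted p = 0.000949) and with Dcp2 siRNA (-0.54, adjusted p = 0.0256). HSPA2 was also higher with DcpS than with GAPDH siRNA (0.62, adjusted p = 0.00549). With Dcp2 siRNA it lay 0.27 below DcpS siRNA (interval -0.53 to -0.01) and 0.35 above GAPDH siRNA, neither of them called (adjusted p = 0.235 and 0.154). The 3 called differences of HSPA2 that involve DcpS siRNA were called in all 14 alternative settings run for each. The 2 called ones that involve Dcp2 siRNA were not. The change from non-silencing gave 0.39 without Dcp2 replicate 1 (adjusted p = 0.155), 0.54 without Dcp2 replicate 2 (0.108), 0.45 without non-silencing replicate 1 (0.183) and 0.53 without non-silencing replicate 2 (0.1) or on the 6 compared arrays alone (0.119). The difference between LOC550643 and Dcp2 siRNA was likewise no longer called without replicate 1 or 2 of either group, with adjusted p-values of 0.0717 to 0.124, or on the 6 compared arrays alone (-0.54, adjusted p = 0.0859).

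HSPA4L, an HSP110-type nucleotide exchange factor related to HSPA4, fell with GAPDH siRNA. Its levels were 8.74, 8.59 and 8.78 in those arrays and 9.20, 9.29 and 9.26 in the non-silencing arrays. They were 9.46, 9.34 and 9.40 with LOC550643 siRNA, 9.16, 9.32 and 9.27 with Dcp2 siRNA and 9.27, 9.46 and 9.32 with DcpS siRNA. All 3 GAPDH arrays lay below the other 12. The change from non-silencing was -0.55 (68.5% of that level, SE 0.09, limma adjusted p = 0.00315). The gene was higher than with GAPDH siRNA by 0.70 with LOC550643 siRNA (adjusted p = 0.000267), 0.54 with Dcp2 siRNA (0.00231) and 0.65 with DcpS siRNA (0.000298). The other 3 siRNAs lay 0.00 to 0.15 above non-silencing, and none of these differences was called. The direct differences were called in all 14 settings, and the one with non-silencing in 13, the exception being a fit to the 6 compared arrays alone (-0.55, adjusted p = 0.0586). Among the blood cell genes, CD68, a lysosomal protein, was 1.10 higher with GAPDH than with non-silencing siRNA. The others measured changed by only 0.05 and 0.08. Through CD68, the mean level of that list was 4.63 to 4.71 in the GAPDH arrays against 4.23 to 4.55 elsewhere. The part of CD68 in the HSPA4L result was not tested.

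Both copies of the major heat-inducible HSP70, HSPA1A and HSPA1B, were higher with Dcp2 and with DcpS siRNA than with GAPDH siRNA. HSPA1A was at 11.79, 11.47 and 11.55 in the Dcp2 arrays and 11.39, 11.68 and 11.75 in the DcpS arrays. It was at 10.73, 10.28 and 11.05 in the GAPDH arrays, 10.57, 11.05 and 11.17 in the non-silencing arrays and 10.85, 11.07 and 11.30 in the LOC550643 arrays. All 6 Dcp2 and DcpS arrays lay above the other 9. HSPA1B had the same arrangement, with 11.71 to 12.14 in the Dcp2 and DcpS arrays and 10.55 to 11.59 in the rest. For HSPA1A the difference from GAPDH siRNA was 0.92 with Dcp2 siRNA (1.89-fold, SE 0.19, limma adjusted p = 0.0149) and 0.92 with DcpS siRNA (adjusted p = 0.00738). For HSPA1B it was 0.95 with Dcp2 siRNA (adjusted p = 0.0156) and 0.94 with DcpS siRNA (adjusted p = 0.00849). The DcpS differences were called in all 14 settings. That of HSPA1A with Dcp2 siRNA was not called without Dcp2 replicate 1 (0.83, adjusted p = 0.0822) or GAPDH replicate 2 (0.72, adjusted p = 0.0789). That of HSPA1B was not called without Dcp2 replicate 1 (0.84, adjusted p = 0.087), Dcp2 replicate 3 (0.96, adjusted p = 0.0509) or GAPDH replicate 2 (0.73, adjusted p = 0.0818), or on the 6 compared arrays alone (0.95, adjusted p = 0.0519).

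Against non-silencing siRNA, neither gene passed the threshold. HSPA1A differed by 0.67 with Dcp2 siRNA (interval 0.27 to 1.08, limma adjusted p = 0.0774) and by 0.68 with DcpS siRNA (interval 0.27 to 1.08, adjusted p = 0.0621). With GAPDH siRNA it differed by -0.25 (interval -0.65 to 0.16) and with LOC550643 siRNA by 0.14 (interval -0.26 to 0.54). HSPA1B gave 0.71, 0.70, -0.24 and 0.13 in the same order. These values lie near the threshold, and the Dcp2 and DcpS differences of both genes were called in some of the alternative settings and not in others. Between Dcp2 and DcpS siRNA HSPA1A differed by 0.00 (interval -0.40 to 0.40), which leaves room for a difference of about that size in either direction.

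HSPA1A and HSPA1B encode nearly the same protein and their transcripts are near-identical, so their signals are not independent and cannot be assigned with certainty to one copy. HSPA1B minus HSPA1A ran only from 0.24 to 0.35 log2 units over the 15 arrays. Each gene had 5 probe sets in the table, of which those of HSPA1A held 3 distinct rows of values. Over the HSPA1A probe sets the change from non-silencing was 0.67 to 0.74 with Dcp2 siRNA, 0.68 to 0.74 with DcpS siRNA and -0.30 to -0.25 with GAPDH siRNA. Over the HSPA1B probe sets the Dcp2 change was 0.66 to 0.80. HSPA1L, the testis-enriched neighbour, gave 0.13 to 0.32 with Dcp2 siRNA and 0.22 to 0.38 with DcpS siRNA over 5 probe sets. These too held only 3 distinct rows of values. On the probe set used, the 2 HSPA1L changes were 0.32 and 0.38 (adjusted p = 0.176 and 0.0934), and neither was called.

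**Figure D2:**
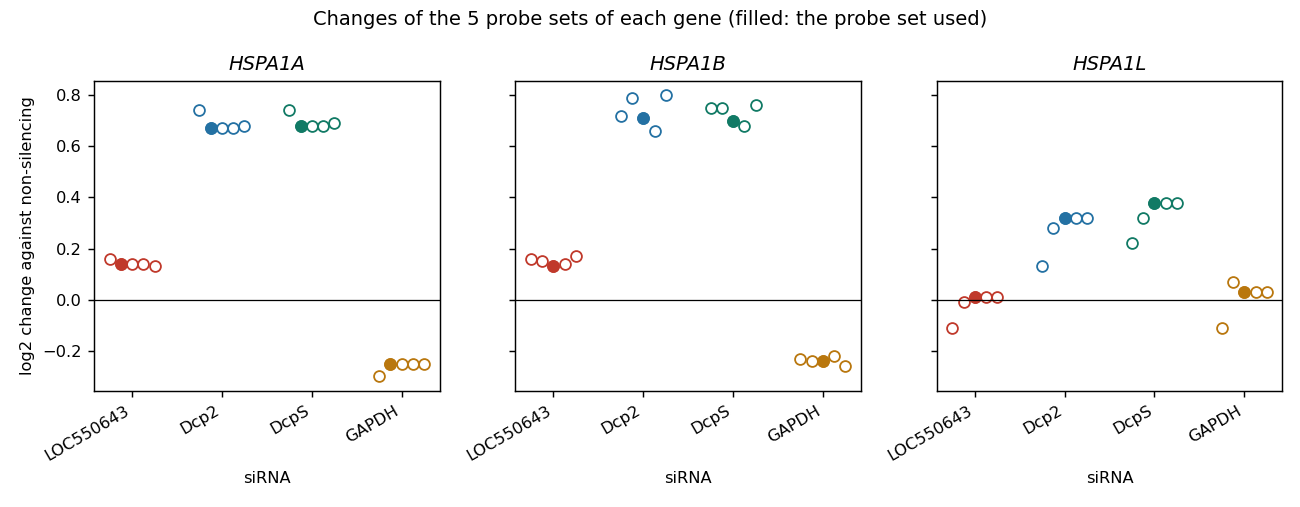
Log2 change from non-silencing siRNA (vertical axis) for each of the 5 probe sets of HSPA1A, HSPA1B and HSPA1L, for 4 siRNAs. Filled points are the probe sets used in the tests. The 5 probe sets of HSPA1A, and those of HSPA1L, hold 3 distinct rows of values. The HSPA1A and HSPA1B probe sets lie between 0.66 and 0.80 with Dcp2 and DcpS siRNA, and between -0.30 and -0.22 with GAPDH siRNA.

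HSPH1, the major cytosolic HSP110, differed in the same 2 direct comparisons but by less. It was at 8.69, 8.46 and 8.58 in the Dcp2 arrays, 8.53, 8.68 and 8.43 in the DcpS arrays and 8.28, 8.19 and 8.07 in the GAPDH arrays. The LOC550643 arrays (8.38, 8.33 and 8.27) and the non-silencing arrays (8.33, 8.44 and 8.31) had means between these, and each overlapped with a neighbouring group. No GAPDH array reached the lowest Dcp2 or DcpS array. The difference from GAPDH siRNA was 0.40 with Dcp2 siRNA (SE 0.09, limma adjusted p = 0.0305) and 0.36 with DcpS siRNA (SE 0.09, adjusted p = 0.0308). Both calls were weak. Leaving out Dcp2 replicate 1 or 3, or GAPDH replicate 2 or 3, ended the call of the Dcp2 difference (0.34 to 0.40, adjusted p up to 0.144). After a further quantile normalization the Dcp2 difference was 0.36 with an adjusted p of 0.0736. Leaving out DcpS replicate 1 or 2, or GAPDH replicate 2 or 3, ended that of the DcpS difference (0.30 to 0.37, adjusted p up to 0.122). On the 6 compared arrays alone neither was called (0.40 and 0.36, adjusted p = 0.0919 and 0.14). Against non-silencing siRNA HSPH1 gave 0.22 with Dcp2 siRNA, 0.18 with DcpS siRNA and -0.18 with GAPDH siRNA, none of them called.

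Counted over the direct comparisons, 5 of the 22 genes were called in at least 1, against 15.3% of all genes, and they were the genes already described. Between Dcp2 and GAPDH siRNA 4 genes were called (HSPA1A, HSPA1B, HSPA4L and HSPH1), against 2.79% of all genes. Between DcpS and GAPDH siRNA 5 were called (those 4 and HSPA2), against 5.98%. Both comparisons use the same GAPDH arrays and are not independent. All the genes called in them were lower with GAPDH siRNA, and the share of the 22 was above the background in both. As HSPA1A and HSPA1B are near copies, each of these counts holds 1 gene fewer in independent signals. The background holds all genes tested, whose median level was 5.47, while the 5 called genes had mean levels of 6.66 to 11.48. A share over genes of like level was not computed, so the excess cannot be read as particular to chaperones. Without Dcp2 replicate 1, or without GAPDH replicate 2, only HSPA4L of the 4 stayed called between Dcp2 and GAPDH siRNA. Between DcpS and GAPDH siRNA, only HSPH1 lost its call in any alternative setting. Between LOC550643 siRNA and each of Dcp2 siRNA, DcpS siRNA and GAPDH siRNA 1 gene was called, against 3.20%, 6.40% and 4.08%. Between Dcp2 and DcpS siRNA 0 of 22 were called by limma, against 5.64%, and 3 had an unadjusted p under 0.05, against 19.2%.

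**Figure D3:**
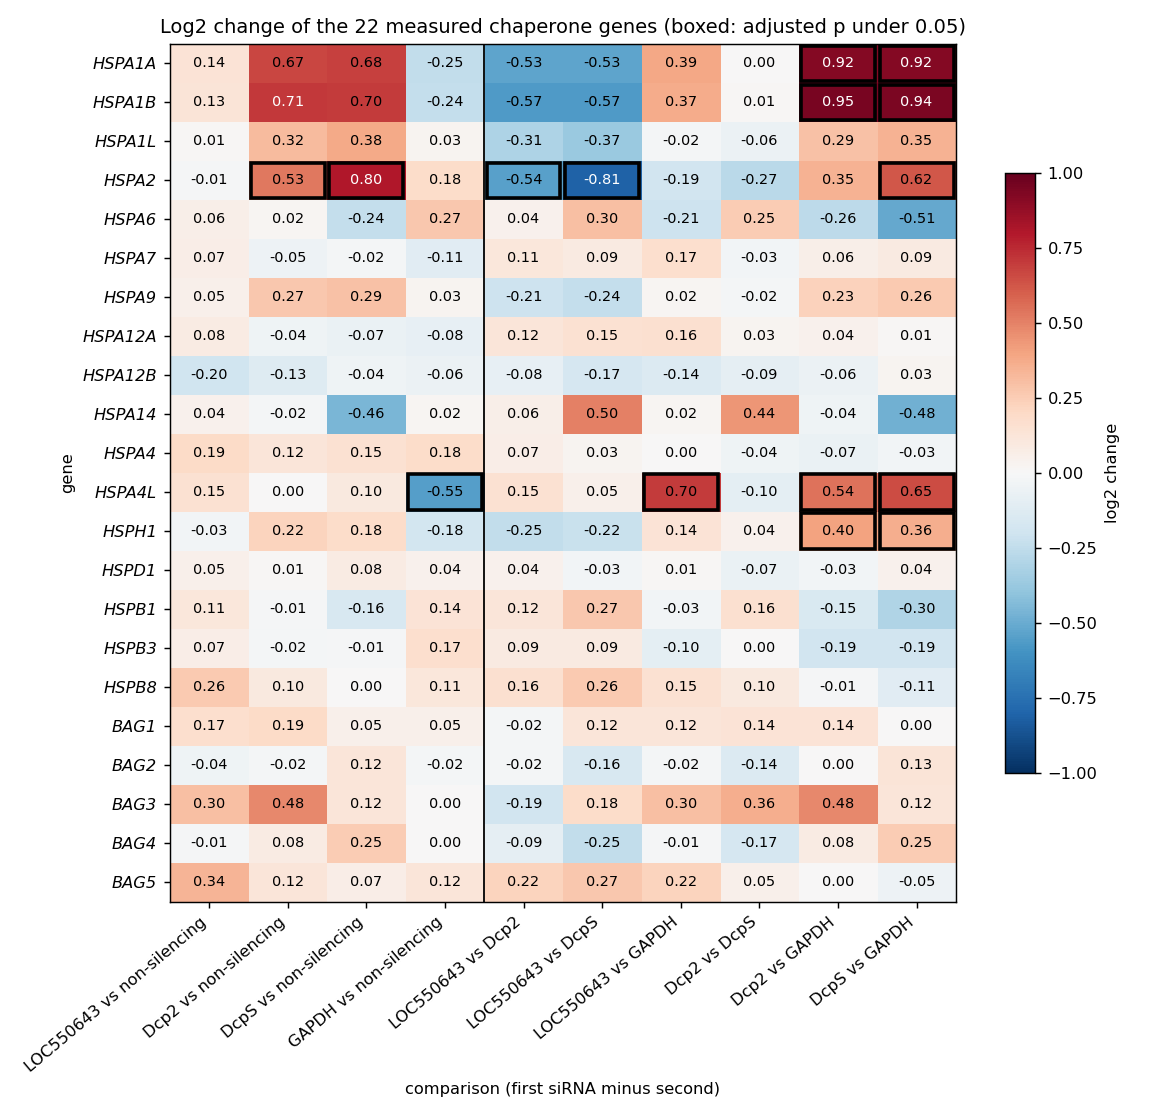
Log2 change of the 22 chaperone genes (rows) in 10 comparisons between siRNA groups (columns, first group minus second), as colour. Boxes mark an adjusted p under 0.05, which appear only in the rows of HSPA1A, HSPA1B, HSPA2, HSPA4L and HSPH1.

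Other HSP70-family genes gave smaller or less certain differences. HSPA14, a ribosome-associated HSP70, was at 7.12, 7.10 and 6.98 in the DcpS arrays and at 7.29 or more in the other 12, so that the DcpS arrays did not overlap with any other group. The differences were -0.46 from non-silencing (interval -0.77 to -0.15, limma adjusted p = 0.108), -0.48 from GAPDH siRNA (adjusted p = 0.0715) and 0.50 for LOC550643 over DcpS siRNA (adjusted p = 0.0576). None was called in the main fit. With the shared-spread score described below in the model, the difference from non-silencing was called (-0.48, limma adjusted p = 0.0455). HSPA9, the mitochondrial HSP70, was at 10.87, 10.93 and 10.90 with Dcp2 siRNA and 11.09, 10.78 and 10.91 with DcpS siRNA, against 10.71, 10.61 and 10.58 with non-silencing siRNA. These changes were 0.27 and 0.29 (adjusted p = 0.154 and 0.108), and neither was called in the main fit. The DcpS change was called with an intensity trend and robust fitting (0.29, limma adjusted p = 0.0378). It was also called with the score in the model (0.31, adjusted p = 0.0274).

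HSPA4, the widely expressed relative of HSPA4L, lay 0.12 to 0.19 above non-silencing siRNA in all 4 groups, with no call. Its lowest arrays were 2 of the non-silencing ones, at 9.06 and 9.10, and the third, at 9.30, lay among the other groups. HSPA6, a strictly heat-inducible HSP70 whose window held the 3-unit element, stayed at 3.43 to 4.35 on all arrays. Its DcpS and GAPDH arrays differed by -0.51 (adjusted p = 0.103) and overlapped. HSPA6, its near copy HSPA7, HSPB3 and HSPB8 were the 4 genes with a mean level under 5 log2 units, where differences are less certain. HSPA7 changed by -0.11 to 0.07 from non-silencing siRNA. HSPA12A and HSPA12B, divergent members of the family, changed by -0.08 to 0.08 and -0.20 to -0.04 from non-silencing siRNA.

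HSPB1, the broadly expressed small heat shock protein HSP27, was at 9.63, 9.48 and 9.42 with DcpS siRNA and 9.89, 9.86 and 9.70 with GAPDH siRNA. The groups did not overlap, and the difference of -0.30 (interval -0.49 to -0.12, limma adjusted p = 0.0552) ran opposite in sign to those of HSPA1A, HSPA1B and HSPH1 in that comparison but did not pass the threshold. HSPB3, a muscle small heat shock protein, and HSPB8, a partner of BAG3, lay -0.02 to 0.26 from non-silencing siRNA over the 4 siRNAs. HSPD1, the mitochondrial chaperonin HSP60, was within 8.02 to 8.23 on all 15 arrays, and its 4 changes from non-silencing were 0.01 to 0.08. The interval for LOC550643 siRNA was -0.12 to 0.22.

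BAG3, which links HSP70 to HSPB8 and selective autophagy and is itself heat-inducible, was at 8.03, 7.87 and 7.94 with Dcp2 siRNA. It was at 7.15, 7.47 and 7.77 with non-silencing siRNA, 7.66, 7.67 and 7.94 with LOC550643 siRNA, 7.32, 7.69 and 7.73 with DcpS siRNA and 7.53, 7.19 and 7.67 with GAPDH siRNA. The Dcp2 and non-silencing arrays did not overlap. The difference of 0.48 (interval 0.14 to 0.82, limma adjusted p = 0.126) was not called. BAG5, a BAG protein with several BAG domains, was 0.34 higher with LOC550643 siRNA (adjusted p = 0.217), again without a call. BAG2, an inhibitor of the ubiquitin ligase CHIP, had changes from non-silencing of -0.04 to 0.12, and BAG1 and BAG4 of -0.01 to 0.25.

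Part of the spread within groups was shared by many genes, and the chaperone levels were set beside it. The direction of this spread was the first principal component of deviations from the group means over genes outside the chaperone set, which carried 24.7% of the variance within groups. Each array's score is its levels, centred on the mean of all 15 arrays, projected on that direction, with the sign set so that Dcp2 siRNA scores above non-silencing. The score therefore also carries differences between groups, and using it as a covariate removes any part of a group difference that lies along it. Its lowest values were -20.2 in non-silencing replicate 1, -16.8 in DcpS replicate 1 and -11.5 in GAPDH replicate 2, and the Dcp2 group had the highest mean, 7.50. In 4 of 5 groups the array with the lowest score was also the lowest for HSPA1A, HSPA1B and BAG3. This held in 3 groups for HSPA2 and HSPA4L and in none for HSPH1, HSPA9, HSPB1 and HSPB3. With 3 arrays a group some such matches arise by chance, and the share over all genes was not computed. With the score in the model, the HSPA1A change from non-silencing was 0.36 with Dcp2 siRNA (limma adjusted p = 0.135) and 0.61 with DcpS siRNA (adjusted p = 0.00143). HSPA1A still differed from GAPDH siRNA, by 0.73 with Dcp2 siRNA (adjusted p = 0.000696) and 0.98 with DcpS siRNA (adjusted p = 1.73e-05). HSPA2 gave 0.43 with Dcp2 siRNA (adjusted p = 0.135) and 0.78 with DcpS siRNA (adjusted p = 0.00106).

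**Figure D4:**
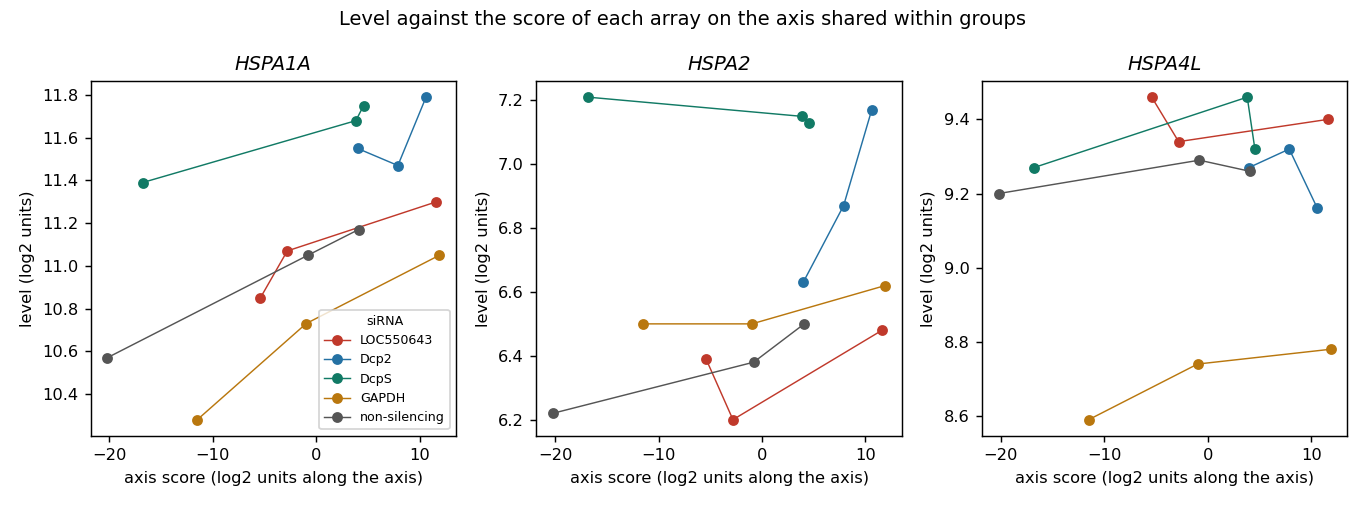
Log2 level of HSPA1A, HSPA2 and HSPA4L (vertical axes) against the score for spread shared within groups (horizontal axis, log2 units along the axis) on 15 arrays, with the arrays of a group joined. Non-silencing replicate 1 has the lowest score, -20.2, and the lowest non-silencing HSPA1A level, 10.57.

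Immediate early and short-lived transcripts, which are induced rapidly by many stimuli, also stood apart in some arrays. Their mean level over 22 of 29 listed genes was 7.10 to 7.25 with Dcp2 siRNA, 6.57 to 6.97 with DcpS siRNA, 6.67 to 6.96 with GAPDH siRNA, 6.75 to 7.0 with LOC550643 siRNA and 6.37 to 6.77 with non-silencing siRNA. The Dcp2 arrays were thus above all others, while the DcpS arrays, which had HSPA1A levels like those of the Dcp2 arrays, overlapped with the other 3 groups. Against non-silencing siRNA 9 of the 22 rose with Dcp2 siRNA, where 1.05% of all genes were called higher, among them GEM by 1.47 and JUN by 1.42 (limma adjusted p = 0.00521 and 0.00732). With DcpS siRNA 2 rose, where 1.76% of all genes were called higher. With GAPDH siRNA 1 rose and 1 fell (MYC, by 0.68), where 0.726% of all genes were called higher and 1.27% lower. With LOC550643 siRNA 0 were called by limma, and 6 had an unadjusted p under 0.05, against 12.5% of all genes. The part of this group in the chaperone results was not tested.

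Partners of the chaperones were examined through lists of known genes, read against 7.46% of all genes called in at least 1 of the 4 comparisons with non-silencing siRNA. Among HSP90 cochaperones 12 of 18 were measured and 0 were called by limma, while 7 had an unadjusted p under 0.05 in at least 1 comparison, against 38.3% of all genes. In direct comparisons PIH1D1, a part of the R2TP complex, was lower with Dcp2 than DcpS siRNA by 0.53 (adjusted p = 0.0494). PPID, a cyclophilin bound to HSP90, was lower with DcpS than GAPDH siRNA by 0.32 (adjusted p = 0.0489). Among other heat shock factors and targets 12 of 17 were measured and 0 were called, with 7 at an unadjusted p under 0.05 in at least 1 comparison, against the same 38.3%. HSF1 itself lay -0.11 to 0.16 from non-silencing siRNA. CLU, an extracellular chaperone, was lower with LOC550643 than with Dcp2 siRNA (-0.56, adjusted p = 0.00274) and GAPDH siRNA (-0.59, adjusted p = 0.00109).

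Of 5 measured HSP70 cochaperones among 11 listed, 1 was called against non-silencing siRNA. HYOU1, the HSP110-type exchange factor of the endoplasmic reticulum, fell with LOC550643 siRNA. It was at 7.95 ± 0.08 there, 8.75 ± 0.03 with non-silencing siRNA, 8.75 ± 0.07 with Dcp2 siRNA, 8.94 ± 0.15 with DcpS siRNA and 8.77 ± 0.03 with GAPDH siRNA (SD, n = 3 each). The LOC550643 difference was -0.80 from non-silencing (SE 0.09, limma adjusted p = 0.000182), -0.80 from Dcp2 siRNA (0.000207), -0.99 from DcpS siRNA (1.32e-05) and -0.82 from GAPDH siRNA (7.55e-05). HSPA4L, HSPA4 and HSPH1, its cytosolic relatives, were not called with LOC550643 siRNA, with changes of 0.15, 0.19 and -0.03.

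The cytosolic chaperonin TRiC and its partner prefoldin, which hands unfolded actin and tubulin to it, were listed with the tubulin folding cofactor TBCA, and 7 of 15 listed genes were measured. They were 6 prefoldin genes and TBCA, with no TRiC subunit, and 2 of the 7 were called against non-silencing siRNA. PFDN2 rose with Dcp2 siRNA, to 10.60 ± 0.03 from 10.14 ± 0.16 (SD, n = 3 each), a change of 0.46 (limma adjusted p = 0.0209). VBP1, the prefoldin subunit that binds VHL, fell with DcpS siRNA, to 6.70 ± 0.20 from 7.31 ± 0.16, a change of -0.60 (adjusted p = 0.00764). VBP1 was also lower with DcpS than Dcp2 siRNA, which gave -0.60 and 0.08 relative to non-silencing siRNA, with an adjusted p of 0.00255 for their difference. PFDN1 was lower with LOC550643 than with Dcp2 siRNA by 0.52 (adjusted p = 0.00444) and than with DcpS siRNA by 0.32 (adjusted p = 0.04).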

How the data were processed

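Levels were measured on 15 arrays, 5 siRNA groups of 3, with groups and replicate numbers taken from the sample titles. The authors deposited probe set summaries, taken here as log2 because of the range of the values, since no label gives the base. RMA and oligo were used, per the submitters' processing notes. Their versions, the probe set definition and the genome build are not given in the sources used here. RMA normalizes arrays to like distributions, so a shift of all transcripts cannot be seen.

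Of 53617 probe sets, 16098 carried a single gene symbol in the platform annotation and were taken as named. Probe sets without a symbol or with several symbols were left out. The probe set with the highest mean was used for each of 14884 genes, 779 of which had several. A limma 3.58.1 model (R 4.3.3) with 1 mean per group was fitted to all genes on 15 arrays (10 residual degrees of freedom). Two-sided p-values were given Benjamini-Hochberg adjustment over 14884 genes within a comparison, and genes under 0.05 were called. Intervals are 95% and unadjusted. The fit was tested on simulated data.

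Named genes were the targets, every called chaperone gene, a set of major chaperones, the uncalled members with the 3 widest and 3 narrowest ranges of group means, and up to 4 called genes of each list. Every other member is given by its values, and HSF1 and CD68 were named after their values were seen. Members and lists were chosen with earlier results of these data known. Alternatives were a replicate block, quantile normalization, median centring, a mean of at least 5, the mean of probe sets, an intensity trend with robust fitting, the shared-spread score, each array left out, and the 6 compared arrays alone. Those added after seeing the data are named in the closing section. Depth does not apply to arrays, and their number limits the precision.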

Additional observations from a re-analysis of the deposited data

How the results depend on the processing

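Counts of called chaperone genes are small, so single genes near the threshold move them. With Dcp2 siRNA against non-silencing the count of 1 became 3 with the replicate block, 3 over genes with a mean of at least 5, 2 with the intensity trend, 0 with the shared-spread score and 0 on the 6 compared arrays, and 0 to 1 without single arrays. With DcpS siRNA it became 3, 3, 4 and 5 under the first 4 of these, and was 1 without any single array. With GAPDH siRNA it became 2 with the score and 0 on the 6 arrays, and was 1 without any single array. With LOC550643 siRNA it was 0 without any single array. The 5 genes of the F test were 4 to 5 without single arrays, and the 5 of the direct comparisons were 5 to 7, 8 over genes with a mean of at least 5 and 9 with the score. Genes gained against non-silencing were mainly HSPA1A and HSPA1B, for example at 0.67 and 0.71 with Dcp2 siRNA (limma adjusted p = 0.0475 and 0.0441) with the replicate block. The cause was not tested, except that the filter tests fewer genes and the 6-array fit uses fewer samples.

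Over all genes, calls against non-silencing went from 233 to 367 with LOC550643 siRNA and from 294 to 590 with Dcp2 siRNA under the filter. With the score they went from 294 to 124 with Dcp2 siRNA, from 538 to 1002 with DcpS siRNA and from 297 to 494 with GAPDH siRNA. No called chaperone value changed sign among 948 gene values under alternatives, and 48 uncalled ones did. Fits on the 6 compared arrays for direct comparisons, and the alternatives of those comparisons gene by gene, were chosen after seeing the data.

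Arrays of equal replicate number were alike in some pairs of groups and not in others. The correlation of their deviations from the group means had a median of 0.02 (range -0.20 to 0.39, 9 of 30 pairs over 0.1), beside 0.00 for unequal numbers. Replicate 3 had the highest shared-spread score with LOC550643, DcpS, GAPDH and non-silencing siRNA (11.6, 4.56, 11.9 and 4.08). With Dcp2 siRNA it had the lowest, 3.98. Under the replicate block, calls over all genes with Dcp2 siRNA against non-silencing went from 294 to 436.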
